A study of Homo sapiens with 6 samples.

Results

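Promoters of protein-coding genes were compared between neural progenitor cells (NPCs) lacking both H3K27 demethylases and wild-type NPCs, gene family by gene family. A gene counted as listed when the summit of a chromatin accessibility peak lay within 3 kb of its start, and the strongest such peak stood for the gene. Of 20033 protein-coding genes, 11310 were listed in at least one of both genotypes. The dKO list alone held 5688 of them, both lists held 5540 and the WT list alone held 82, while 8723 genes were listed in neither.

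Both groups were derived from H1, an established human embryonic stem cell line, by neural differentiation with inhibitors of TGF-beta and BMP signalling. WT NPCs carried no edit. In dKO NPCs the parts of KDM6A (encoding UTX) and KDM6B (encoding JMJD3) that code for the catalytic domains had been deleted in the stem cells with CRISPR, using donor DNA with a LoxP-flanked selection cassette and puromycin selection of clones. Cre removed the cassette of the first edit before the second, so one edited line stands for the genotype. ATAC-seq, in which the Tn5 transposase cuts and tags accessible DNA, was done on 2 replicates per genotype, and each genotype has 1 peak list that pools them. No value below therefore has a replicate error, and differences describe these pooled libraries. Another list, from dKO NPCs that also expressed the neuronal BAF subunit BAF53B, is quoted only beside the same promoters.

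UTX and JMJD3 remove methyl groups from lysine 27 of histone H3, a mark laid down by Polycomb repressive complex 2. The mark covers promoters of developmental regulators that a cell keeps silent, whereas promoters of housekeeping genes lie in CpG islands free of it and stay accessible in most cell types. Genes of neurons, epithelia and matrix are switched on lineage by lineage, and many of their promoters are also CpG-rich.

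The level of a promoter is given as its summit pileup, the number of fragments covering the summit, which was solved from the deposited fold and p-value and recovered as a whole number for 100% of peaks. The WT list held 7880 peaks and the dKO list 25439, although the genome backgrounds, which follow sequencing depth, were 6.33 and 6.81 fragments, a ratio of 1.08. Ratios between lists are of pileups divided by these backgrounds and are called scaled ratios. Their 95% intervals, like the Wilson intervals of shares, cover counting error only, and genes that share a promoter peak are not independent. At the targeted genes themselves, the KDM6A promoter had no WT peak, a dKO pileup of 45 and a pileup of 32 with BAF53B, and the KDM6B promoter had pileups of 53, 173 and 71. The deletions lie outside these promoters, so the values do not check the genotypes.

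Sequences around the summits of promoters at the extremes of the comparison are shown for SIX5 (listed in dKO only), ID1 (among the largest scaled ratios), BOD1L1 (the smallest) and CELF3 and POLQ (listed in WT only). Each run is 121 bases of the plus strand of hg38, 5′ to 3′, centred on the summit and free of annotated exons of protein-coding genes. Capitals mark matches on either strand. The letters searched were GGGCGG for the GC box and CCAAT for the CCAAT box. The ETS site was CCGGAAG, and the CRE is a palindrome seen at ID1.
SIX5, dKO summit, chr19:45769472-45769592: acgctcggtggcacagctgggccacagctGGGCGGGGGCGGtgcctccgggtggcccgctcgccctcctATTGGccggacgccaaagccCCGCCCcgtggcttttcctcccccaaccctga
ID1, dKO summit, chr20:31604257-31604377: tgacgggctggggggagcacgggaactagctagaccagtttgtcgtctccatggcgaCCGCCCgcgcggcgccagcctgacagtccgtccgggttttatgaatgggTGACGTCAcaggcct
BOD1L1, WT summit, chr4:13627747-13627867: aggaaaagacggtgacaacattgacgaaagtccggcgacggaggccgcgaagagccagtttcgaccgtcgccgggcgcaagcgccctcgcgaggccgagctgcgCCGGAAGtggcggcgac
CELF3, WT summit, chr1:151716937-151717057: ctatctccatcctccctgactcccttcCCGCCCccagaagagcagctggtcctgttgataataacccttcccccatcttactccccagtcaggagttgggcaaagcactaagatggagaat
POLQ, WT summit, chr3:121546070-121546190: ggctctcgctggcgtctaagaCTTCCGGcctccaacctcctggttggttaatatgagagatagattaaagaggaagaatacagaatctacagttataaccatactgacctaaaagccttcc

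Over all genes, a promoter peak was found in dKO only at 28.4%, in both lists at 27.7% and in WT only at 0.409%. Of the 11228 genes with a dKO promoter peak, 49.3% (95% interval 48.4 to 50.3%) also had one in WT, and these 2 shares are the background against which every gene family below is read. The dKO-only genes rested on 5011 distinct peaks, since 1313 of them shared their peak with a neighbouring gene. Their summits lay a median of 148 bp from the gene start, against 111 bp for genes in both lists, and 86.2% lay within 1 kb. Their median dKO pileup was 45 fragments, against 75 at the genes in both lists.

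Whether a gene with a dKO peak was also listed in WT followed its dKO pileup. The WT share was 10.0% at pileups of 25 to 33, 41.6% at 50 to 56 and 96.9% at 106 to 299. Strong dKO promoters without a WT peak were thus few, at 56 of 1402 genes with a pileup of at least 100. For the gene families described in detail the observed WT count is therefore given beside the count that the all-gene shares at the same dKO pileups would give, called the pileup-matched count.

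**Figure D1:**
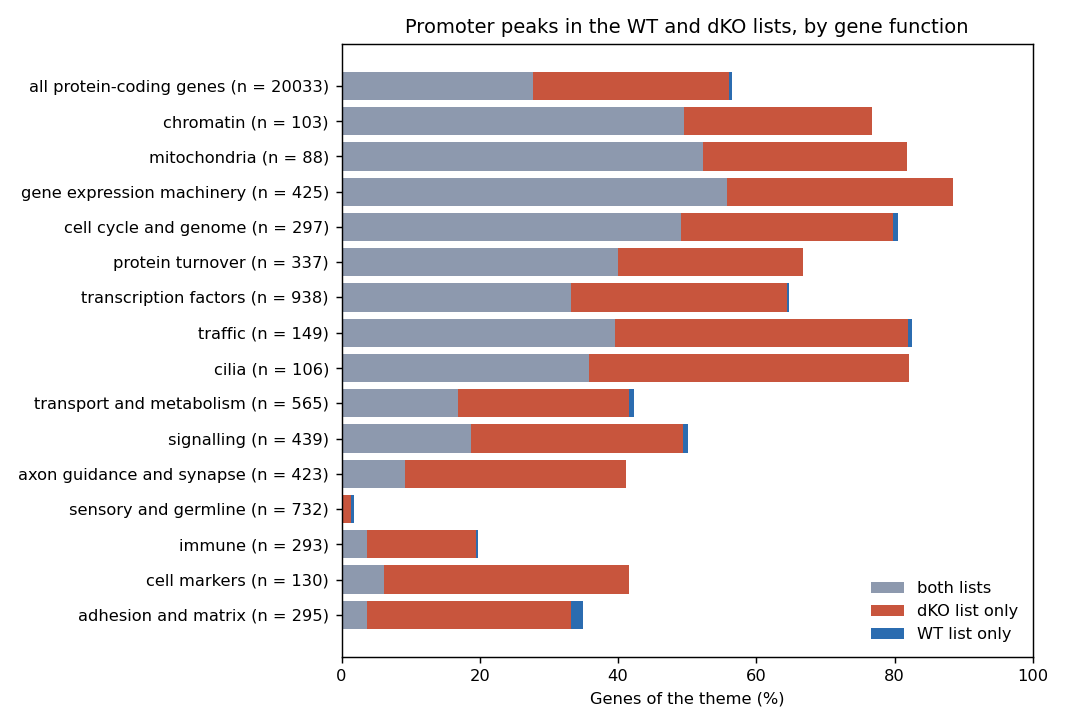
Share of the genes of each functional theme (bars, % of genes, n in the labels) with a promoter peak in both lists, in the dKO list only or in the WT list only. The both-lists part spans 55.8% of the gene expression machinery and a small part of the adhesion and matrix genes, whereas the dKO-only part runs from 1.09% of sensory and germline genes to 46.2% of cilium genes.

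The strongest dKO promoters without a WT peak lay at genes of varied function. FZD2, a Frizzled receptor for WNT ligands, led with a dKO pileup of 156 (Poisson 95% interval 132 to 182), its summit 140 bp upstream of the start, and it reached 69 with BAF53B. The divergent pair IFT140, an intraflagellar transport protein, and CRAMP1 shared a peak of 154 between their starts. SIX5, a homeobox factor, had 150, and SPAG4, a SUN-domain protein of the nuclear envelope, had 147 in an intron 625 bp inside the gene. All of these were listed with BAF53B as well, at 39 to 69 fragments.
Next came ABCA7, a lipid transporter of the ABC family, at 142, the pairs FAM89B with ZNRD2 and NOSIP with PRR12 at 136 each, and ARHGEF1, a guanine nucleotide exchange factor, at 131. GDF11, a TGF-beta family ligand, had 126 at a summit in an intron, 2763 bp inside the gene. The last of the 10 peaks counted for ESYT1, ZC3H10 and RPL41. These 10 peaks describe the top of the list and were chosen for their height.

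The gene expression machinery had the largest share of its genes in both lists of the 15 themes, 55.8%. Of 425 such genes 376 had a dKO promoter peak and 237 of these also a WT peak, a share of 63.0% (58.0 to 67.8%) against 49.3% over all genes and against 53.6% when matched on pileup. By that share among dKO-listed genes, chromatin regulators (64.6%) and mitochondrial genes (63.9%) stood above it. None was listed in WT only. Aminoacyl-tRNA synthetases, which charge tRNAs, had a WT peak at 25 of 31 dKO-listed genes, translation initiation factors at 38 of 50 and cytosolic ribosomal proteins at 47 of 71. The pileup-matched counts of the 3 lists were 18.0, 29.1 and 39.3.
Within these lists the dKO-only and the low-ratio members stood side by side. QARS1, the glutaminyl-tRNA synthetase, had a dKO pileup of 76 and no WT peak, while NARS2, a mitochondrial synthetase, had 41 in WT and 37 in dKO. RPL18 had 43 in WT and 165 in dKO, a scaled ratio of 3.57 (2.54 to 5.11), whereas RPS3A had 48 and 43, a ratio of 0.83 (0.54 to 1.28).

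Mediator subunits, mitochondrial ribosomal proteins and vesicle tethering factors were split more evenly. Mediator, the complex between activators and RNA polymerase II, had 15 of 30 subunits in dKO only and 14 in both lists. Mitochondrial ribosomal proteins had 36 of 78 in dKO only and 35 in both, and MRPS2, of the small subunit, had a dKO pileup of 99 without a WT peak. The VPS, COG and exocyst factors, which tether and sort vesicles, had 24 of 51 in dKO only and 19 in both. All 3 shares of dKO-only genes were above the all-gene share, at 46.2% for the mitochondrial list and 47.1% for the tethering list, and the WT counts were near the pileup-matched 13.3, 34.1 and 19.5.

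Replication and nuclear pore genes resembled the translation genes. Replication origin and fork factors, among them the MCM helicase and the DNA polymerases, had a WT peak at 30 of 38 dKO-listed genes (pileup-matched 23.6), and nucleoporins at 16 of 21 (10.2). The replication-dependent histones had 23 genes in dKO only, on 15 distinct peaks because divergent histone genes share promoters. Another 23 were in both (pileup-matched 24.6), and the 46 dKO-listed genes together rested on 26 distinct peaks. Each shared histone gene had a scaled ratio above 1, as did 96.3% of all shared genes. The histone median was 1.49, against 1.70 over all shared genes. The cell cycle and genome theme held 2 WT-only genes. CDK6, a G1 kinase, had a WT pileup of 32 and ERCC3, a helicase of TFIIH, had 34, and both were listed with BAF53B at 44 and 35.

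Cilium genes had the largest dKO-only share of any theme, 49 of 106 genes or 46.2%. They are genes of dynein arms, radial spokes and intraflagellar transport, and 38 more were in both lists, near the pileup-matched 42.6. CFAP99 had a dKO pileup of 110 and no WT peak, RSPH1, a radial spoke head protein, had 56 in WT and 173 in dKO, and DNAH6, an axonemal dynein heavy chain, had 35 and 27. The median scaled ratio of the 38 shared cilium genes was 1.43, below the 1.70 of all shared genes.

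**Figure D2:**
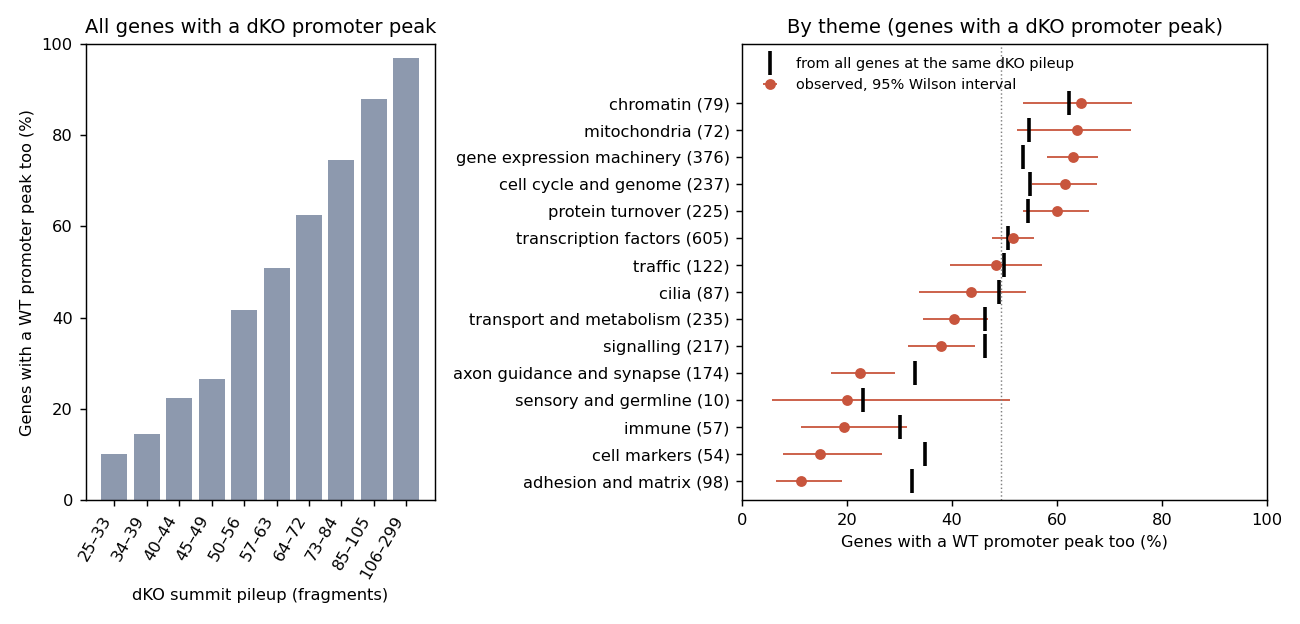
Left, the share of dKO-listed genes that also had a WT promoter peak (bars, %) in 10 ranges of dKO summit pileup (fragments). Right, the same share per theme (points, with Wilson intervals, number of dKO-listed genes in brackets) and the share expected from all genes at the same dKO pileups (black ticks), where adhesion and matrix, cell markers, and axon guidance and synapse lie to the left of their ticks and gene expression machinery to the right.

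Transcription factors divided by family. Of 562 C2H2 zinc finger genes 445 had a dKO peak and 247 also a WT peak (pileup-matched 227), or 55.5%, with 198 in dKO only and 2 in WT only. ZNF446 led the dKO-only ones with a pileup of 104, ZNF527 had 35 in WT and 132 in dKO, and ZNF212 had 39 and 30. Homeobox factors outside the HOX clusters had a dKO peak at 40 of 117 genes and a WT peak at 9 of these (pileup-matched 15.9), and forkhead factors at 22 of 51 and 6 (9.69), while SOX factors had 10 of 19 and 5 (5.62). The interval of the WT share was 12.3 to 37.5% for homeobox genes, below the pileup-matched 39.8%. When promoters were matched on GC content too, the matched share was 38.1%, barely outside that interval. The intervals of the forkhead (13.2 to 48.2%) and SOX genes (23.7 to 76.3%) held their pileup-matched shares.
Among homeobox genes SIX5 was the strongest dKO-only member. IRX5, a patterning factor, had 59 in WT and 127 in dKO, and POU3F2, a neural POU factor also called BRN2, had WT, dKO and BAF53B pileups of 51, 44 and 41, a scaled ratio of 0.80 (0.52 to 1.22). Of the 39 HOX genes, which set position along the body axis, 3 were listed, all in dKO only, namely HOXA3 and HOXA6 on a shared peak of 36 fragments and HOXC13 with 34. KLF and SP factors, which bind GC boxes, had 12 of 27 in dKO only and 6 in both (pileup-matched 9.30), with a median scaled ratio of 2.22 at the shared ones.

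Chromatin regulators had 51 of 103 genes in both lists and 28 in dKO only, and the 51 lay near the pileup-matched 49.2. Lysine demethylases and methyltransferases had a WT peak at 25 of 34 dKO-listed genes (pileup-matched 22.7), and BAF subunits, of the remodelling complex to which BAF53B belongs, at 15 of 23 (12.6). KDM2A, an H3K36 demethylase, had 32 fragments in WT and 118 in dKO, a scaled ratio of 3.43 (2.30 to 5.24). ACTL6B, the gene of BAF53B, had 37 in WT, 34 in dKO and 30 in the line that expressed the added copy. Among the deacetylases, sirtuins and acetyltransferases, 11 genes were in dKO only and 11 in both (pileup-matched 13.8), and the 11 shared ones had a median scaled ratio of 2.30, the highest of the 42 lists with at least 10 shared genes. KAT6B, an acetyltransferase, had 66 in WT and 230 in dKO.

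Signalling genes were listed in WT at 82 of 217 dKO-listed genes, or 37.8% (31.6 to 44.4%), below the pileup-matched 46.3%. When promoters were matched on GC content too, the matched share was 44.1%, inside that interval. The WNT list had 15 of 43 members in dKO only and 4 in both (pileup-matched 7.10). Its Frizzled receptors accounted for the strongest, with FZD2 at 156 and FZD5 at 99 in dKO only, while FZD1 had 47 in WT and 104 in dKO. WNT ligands were lower, with WNT7B at 51 and WNT10B at 45 in dKO only and WNT6 at 36 in WT and 43 in dKO.
The growth factor list (FGF, EGF, IGF and neuregulin families) had 21 members in dKO only, 7 in both (pileup-matched 8.82) and 1, FGF19, in WT only with a pileup of 33. TGF-beta and BMP genes were closer to the background, with 16 in dKO only and 15 in both against a pileup-matched 15.3. ID1, a BMP target that blocks bHLH factors, had 49 in WT and 201 in dKO, a scaled ratio of 3.81 (2.78 to 5.32), and BMP6, a ligand, had 34 and 33.

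Axon guidance and synapse genes had a dKO peak at 174 of 423 genes and a WT peak at 39 of these, 22.4% (16.9 to 29.2%), against a pileup-matched count of 57.1. Potassium channels were in dKO only at 30 of 96 genes and in both at 5, where 11.2 pileup-matched genes would stand. KCNA1 had a dKO pileup of 66 without a WT peak, and among the shared members were KCNN3 with 56 in WT and 116 in dKO, KCNAB2 with 45 and 109, KCNAB3 with 46 and 106, and KCNT2 with 41 and 65. KCNAB2 and KCNAB3 encode the cytoplasmic beta subunits.
Sodium and calcium channels had 17 of 40 in dKO only and 3 in both (pileup-matched 6.42), and CACNA1S led the former with 71. Semaphorins, plexins, ephrins and netrins, which steer axons, had 31 of 74 in dKO only and 11 in both (pileup-matched 17.1). UNC5B, a netrin receptor, had a dKO pileup of 83 without a WT peak, EPHB3 had 48 in WT and 134 in dKO, and EPHA3 had 36 and 34.
Glutamate, GABA and glycine receptors had 10 members in dKO only and 4 in both. The interval of that WT share, 11.7 to 54.6%, held the pileup-matched 16.7%. The dKO pileups of this list were low, with a median of 36, and GRM2, a metabotropic glutamate receptor, was the highest dKO-only member at 44.

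Among dKO-listed genes, those of adhesion and matrix had the smallest WT share of the 15 themes. They had a dKO peak at 98 of 295 genes and a WT peak at 11 of these, 11.2% (6.38 to 19.0%), against 31.8 pileup-matched genes, or 29.6 when promoters were matched on GC content too. Collagens, cadherins and claudins with other tight junction genes had no shared promoter at all. Collagens had 14 of 44 genes in dKO only, on 12 distinct peaks, led by COL5A1 with 80 fragments, COL11A1 with 63, COL9A2 with 61 and COL1A1 with 60. COL5A3 was in WT only with 31. The 0 of 14 dKO-listed collagens with a WT peak allows a share of up to 21.4% (3 counts) and stands against 4.36 pileup-matched genes.
Cadherins and desmosomal cadherins, the calcium-dependent cell adhesion proteins, had 12 of 30 in dKO only, led by CDH15, the cadherin of muscle, at 93. Among tight junction genes 11 of 34 were in dKO only. CGN, which encodes cingulin, had 107, CLDN6 had 72, CLDN3 61, CLDN9 60 and CLDN7 50, and CGN and CLDN6 were listed with BAF53B at 58 and 50 while the other 3 were not. The 0 of 12 and 0 of 11 allow WT shares of up to 25% and 27.3% (3 counts), with pileup-matched counts of 3.13 and 5.13. As shares these counts were 26.1% and 46.6%. With GC content matched too they were 23.7% and 45.8%, so the cadherin limit held its GC-matched share.
Laminins, integrins and fibrous matrix genes had 26 of 65 in dKO only and 5 in both (pileup-matched 8.56), and 2 were in WT only, one of them THBS2, a thrombospondin, with 37 fragments. ITGA3, an integrin that binds laminin, had a dKO pileup of 71. Of the 87 adhesion and matrix genes in dKO only, 26 (29.9%) were listed with BAF53B, against 56.6% of all dKO-only genes. The same share was 38.5% for axon guidance and synapse genes, 39.1% for immune genes and 79.1% for gene expression machinery. These shares were not matched on pileup.

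Transport, metabolic, immune and sensory families held fewer promoters. Solute carriers had 111 of 374 in dKO only and 73 in both (pileup-matched 86.0). SLC25A39, a mitochondrial carrier, had a dKO pileup of 99 without a WT peak, and SLC18A1, the vesicular monoamine transporter of endocrine cells, was one of 2 in WT only, with 37. Interleukins, chemokines and their receptors had 27 of 181 in dKO only and 6 in both (pileup-matched 9.16), with IL6ST, the shared signalling receptor gp130, at 82. Olfactory receptors were near empty, with 4 of 416 in dKO only at 25 to 41 fragments and 2 in WT only, OR52N2 with 38 and OR8B8 with 28.
A count of 0 could also come from stretches without any peak. In 46 stretches of over 300 kb with at least 10 gene starts none of the 3 lists had a peak, and these held 1100 genes. The longest by genes, on chromosome 6 from 28490265 to 33497817, held 183, among them 24 of the 28 HLA and antigen presentation genes, none of which was listed. Of the olfactory receptors 186 lay in such stretches, and whether these regions could give peaks at all was not tested.

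At shared promoters the scaled dKO level was higher almost throughout. The scaling follows sequencing depth only, and whether the libraries differed in enrichment as a whole was not tested. Of the 5540 genes, 96.3% had a scaled ratio above 1, the median was 1.70 and the 5th and 95th percentiles were 1.05 and 2.66. The counting interval lay above 1 at 3698 genes and below 1 at 0, and of the 5540 genes 97.7% had overlapping strongest peaks in both lists. Among the 42 lists with at least 10 shared genes, the median scaled ratio ran from 1.37 for DEAD/DEAH-box helicases to 2.30 for deacetylases and acetyltransferases. By chromosome the median log2 ratio was highest on chromosome 19, at 1.01, and lowest on chromosome 18, at 0.55.

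**Figure D3:**
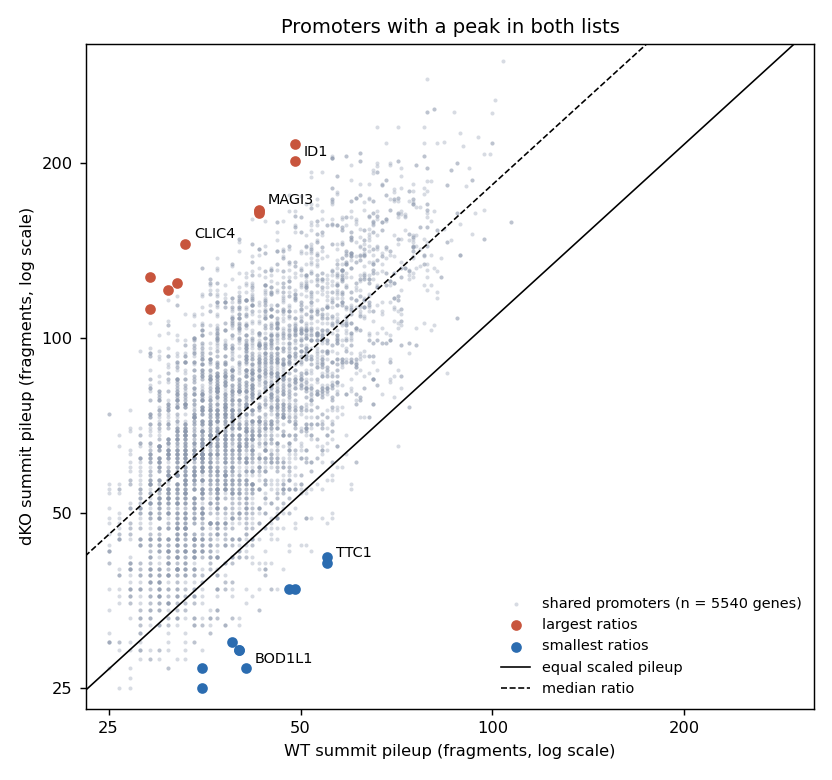
Summit pileup in WT (horizontal) and dKO (vertical, both in fragments on log scales) at each gene with a promoter peak in both lists. The solid line marks equal scaled pileup and the dashed line the median ratio of 1.70, most points lie above the solid line, and the 10 peaks of largest (red) and smallest (blue) ratio stand at the edges.

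Among the largest ratios was CLIC4, a chloride intracellular channel protein, with 33 in WT and 145 in dKO (4.08-fold, 2.78 to 6.16). GSDMA, a gasdermin, had 29 and 127, and ID1 had a ratio of 3.81. SKI, a SMAD corepressor, had 31 and 121, L3MBTL2, a Polycomb-group protein, 32 and 124, RNF43, a ubiquitin ligase that lowers Frizzled levels, 29 and 112, and MAGI3, a junctional scaffold, 43 and 166. RPL18 with SPHK2 and the circadian factor DBP closed the set at 3.57-fold and 3.54-fold. With BAF53B the pileups within the promoter windows named here lay in between, at 50 to 88 fragments. At ID1 the BAF53B value of 80 came from a separate peak that overlapped neither the WT nor the dKO peak. These promoters were chosen for their large ratios of dKO to WT, and an effect of BAF53B on them was not tested. Several of their WT peaks were close to the limit of the list, a −log10 q of 5. GSDMA had 5.02, SKI 5.11, CLIC4 5.64, RNF43 5.75 and ID1 5.90, and the others named here were higher, up to 10.5 at MAGI3.
The smallest ratios were at BOD1L1, which protects stalled replication forks, with 41 in WT and 27 in dKO (0.61-fold, 0.36 to 1.02), WDR36, a ribosome biogenesis factor, with 35 and 25, and RADX, a single-stranded DNA binding protein of replication forks, and SCFD1, a vesicle fusion factor, with 40 and 29 each. TTC1 had 55 and 41, NSUN4, a mitochondrial RNA methyltransferase, 49 and 37, the pair AIDA and BROX 55 and 42, ZNF212 39 and 30, the pair GLOD4 and MRM3 48 and 37, and DNAH6 35 and 27. Each of these intervals included 1. All 10 peaks were listed with BAF53B, at 31 to 48 fragments.

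Genes in WT only had weak peaks, with pileups of 25 to 52 and a median of 32. Their peaks had a median width of 362 bp, against 730 bp for dKO-only genes in the dKO list. CELF3, a neuronal splicing regulator, was highest at 52 and had 38 with BAF53B, and RIIAD1, whose own start lies within CELF3, had 42 at a separate peak in an intron of CELF3. TSFM, the mitochondrial elongation factor Ts, had 44, DEPP1, a FOXO-induced factor, and FABP3, a fatty acid binding protein, 43 each, STMN4, a neuronal stathmin, 42, POLQ, the DNA polymerase of end joining, and RGMB, a BMP co-receptor, 41 each, RHOJ, an endothelial small GTPase, 40, and AGO2, the slicer of RNA interference, 39. Of the 81 lists 17 held a WT-only gene, none had more of them than of dKO-only genes, and none had more than 2. The lists with 2 were C2H2 zinc fingers, laminins with integrins and fibrous matrix, solute carriers and olfactory receptors, and the adhesion and matrix theme held 5 of 295 genes, against 0.409% over all genes. A dKO peak overlapped the WT peak at 0 of the 82 genes, 19 had a dKO peak elsewhere within 10 kb of the start, and 37 had a promoter peak with BAF53B.

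With each list cut to its 7880 peaks of highest −log10 q, the comparison no longer depended on list length. A promoter peak was then in dKO only at 1844 genes (9.2% of all), in WT only at 843 (4.21%) and in both at 4779 (23.9%). The cut fell at a −log10 q of 14.7 in the dKO list, where the last peak kept had a pileup of 54 and the next one 44. Of the 843 WT-only genes 761 had a dKO promoter peak in the full list, so they mark promoters that ranked lower in dKO. In 52 of the 81 lists dKO-only genes still outnumbered WT-only genes, in 10 the reverse held and in 19 the counts were equal.
Cilium genes stood at 26 dKO-only against 6 WT-only genes, or 24.5% of the theme, splicing factors at 13 against 2, RAB GTPases at 8 against 1, replication-dependent histones at 6 against 0 and centromere proteins at 7 against 1. Mitochondrial genes stood at 11 against 8 and translation initiation factors at 5 against 5. Adhesion and matrix genes had 20 in dKO only, 10 in WT only and 6 in both, so that 23.1% of their dKO-listed genes were also in WT, against 72.2% over all genes. For axon guidance and synapse genes the share was 46.0%, and for gene expression machinery it was 74.3%. Glutamate, GABA and glycine receptors had 0 dKO-only and 4 WT-only genes.

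**Figure D4:**
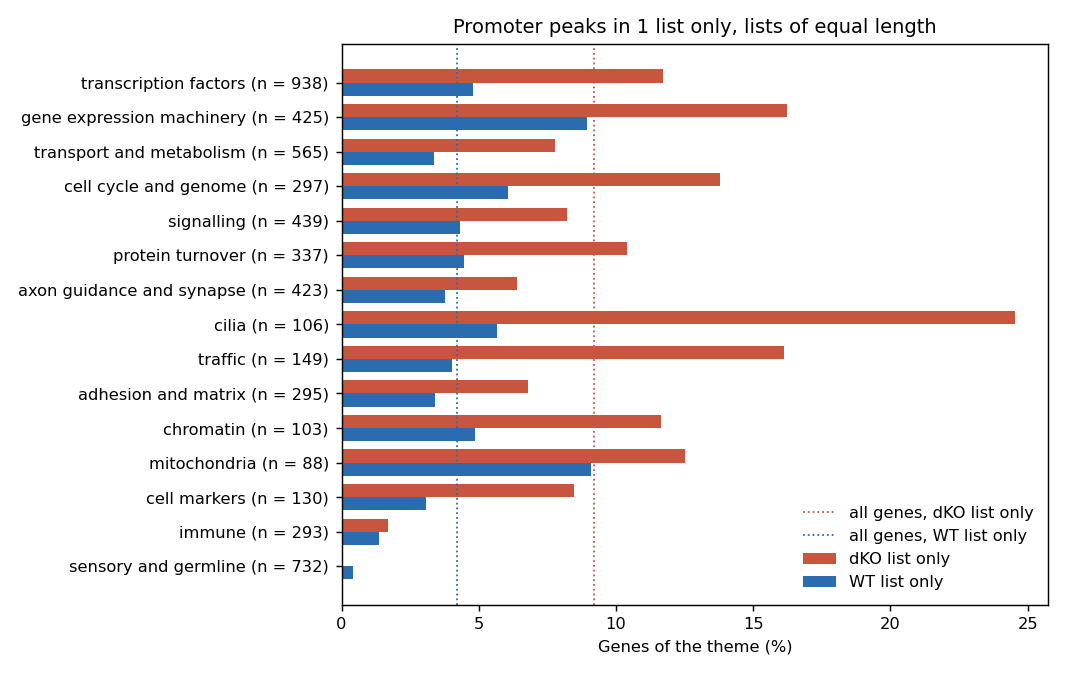
Share of each theme's genes (bars, %) with a promoter peak in the dKO list only or the WT list only when each list is cut to 7880 peaks, with dotted lines for all genes at 9.2% and 4.21%. Cilium genes reach 24.5% in dKO only, and sensory and germline genes are the only theme with no dKO-only gene.

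Of the 5 highest WT-only peaks at equal length, 4 also had a dKO peak in the full list. ARMC5 had 56 in WT and 61 in dKO, the pair AIDA and BROX and TTC1 had 55 in WT against 42 and 41 in dKO, PRR36 had 53 in WT and 89 in dKO, and CELF3 had 52 in WT. PRR36 shows that the ranking follows the local background as well as the pileup, since its dKO fold over that background was 2.77 and its WT fold 3.61. The dKO-only side of that comparison was led by the same 5 peaks as the full lists, from FZD2 to ABCA7.

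Of 22 neural progenitor and radial glia markers 3 were listed in WT and 13 (59.1%) in dKO. Over all genes the WT share was 28.1% and the dKO share 56.05%. The 3 lay near the pileup-matched 4.61. HES1, a Notch effector, had 37 in WT and 113 in dKO, SOX9, a glial and progenitor factor, 38 and 61, and VIM, an intermediate filament gene, 34 and 37. The VIM peaks did not overlap, with summits 377 bp inside the gene in WT and 1199 bp in dKO. SOX2, which maintains progenitors, had 70 in dKO and no peak in the other lists, and SOX1 had 46 in dKO and 67 with BAF53B, while PAX6, NES and OTX2 had no promoter peak in any of the 3 lists. Of 24 neuron markers 12 were listed in dKO and 2 in WT (pileup-matched 2.84), MAP2 with 33 in WT and 69 in dKO and NEFM with 32 and 46. At NEFM too the peaks were separate, with summits 31 bp upstream of the start in WT and 1190 bp inside the gene in dKO. Of 14 pluripotency markers 6 were in dKO only and 0 in both (pileup-matched 2.26), with LIN28A at 79 and SALL4 at 68. NANOG and POU5F1 were in none of the lists. POU5F1 lies in the stretch of chromosome 6 without any peak described above, so its absence does not show a closed promoter. The 0 of 6 allows a WT share of up to 50% (3 counts), against a pileup-matched 37.6%.
Markers of other cell types were listed in dKO as well, but in each such list at a share below the 56.05% of all genes. The highest of these shares was 52.6%, for epithelial and endoderm markers. The dKO shares of neuron markers (50%) and pluripotency markers (42.9%) were also below that of all genes. Neural crest and mesenchyme markers had 7 of 20 in dKO only and 0 in both (pileup-matched share 27.1%), from TWIST1, a mesenchymal bHLH factor, at 29 to COL1A1 at 60. Astrocyte and oligodendrocyte markers had 4 of 16 in dKO only and 1 in both (pileup-matched 1.25). Epithelial and endoderm markers had 8 of 19 in dKO only and 2 in both (pileup-matched 5.90). ESRP1, an epithelial splicing regulator, had 81, KRT19 and CLDN3 61 each, GRHL2, a grainyhead factor, 57, and KRT8 and KRT18 a shared peak of 52. EPCAM, the epithelial cell adhesion molecule, had 31 in WT and 96 in dKO, and ESRP2 46 and 98. None of the 8 dKO-only members, on 7 distinct peaks, was listed with BAF53B. Of dKO-only genes 37.0% were so listed in the cell marker theme and 56.6% over all genes. The 2 shared members, EPCAM and ESRP2, were listed with BAF53B at 44 and 51. At equal length 5 of the list were in dKO only and 0 in WT only. The defining endoderm factors FOXA2, SOX17 and GATA4 were in neither list, and of 15 endothelial and blood markers 1, KDR, was in dKO at 30. Whether other cell types contributed to the dKO libraries was not tested.

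**Figure D5:**
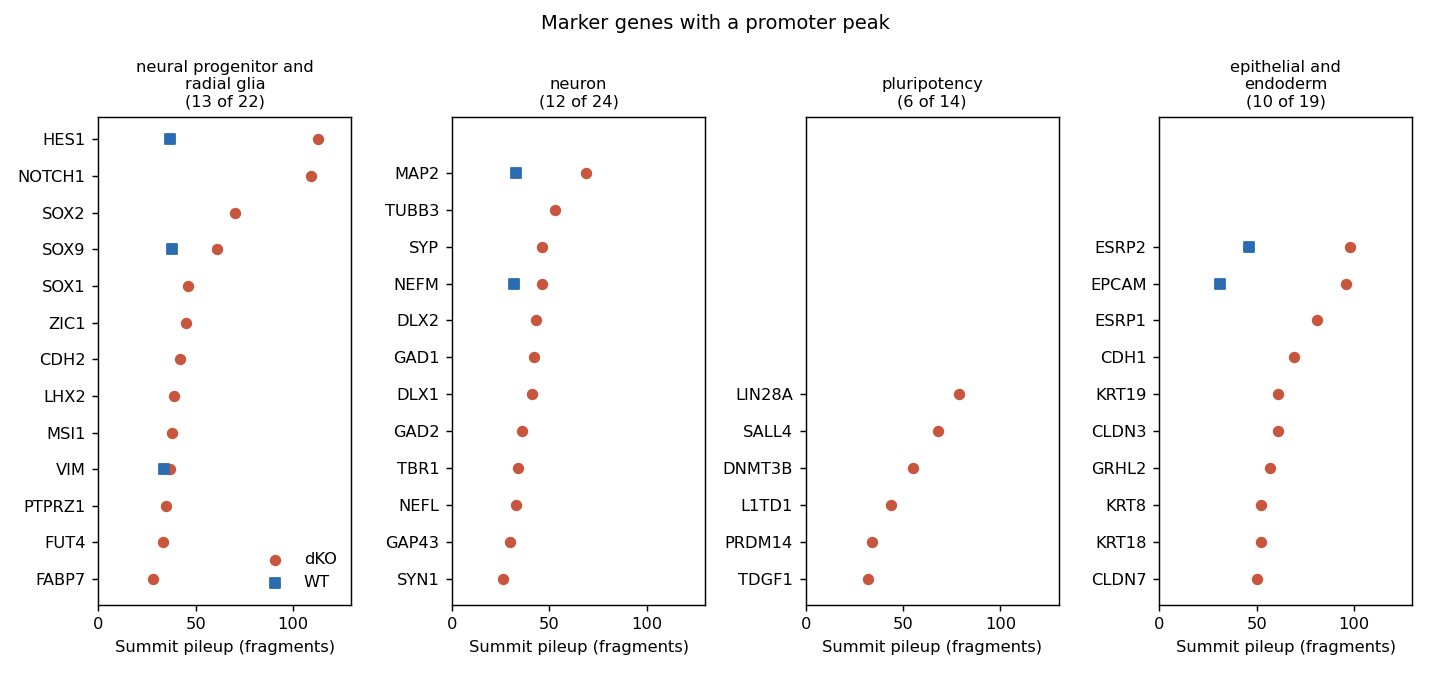
Summit pileup (fragments) of marker genes with a promoter peak in WT (blue squares) or dKO (red circles), in 4 marker lists with listed over total genes in the titles. Most markers have a dKO point and no WT point, and EPCAM, ESRP2, HES1 and SOX9 have both.

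Base composition differed with the classes. The median GC content of the 1 kb around the gene start was 62.5% at dKO-only genes, 61.1% at genes in both lists, 55.8% at WT-only genes and 53.5% at genes in neither. With genes split into 4 equal groups by GC content, 41.0% of the highest group were in dKO only, against 12.8% of the lowest, and the median log2 ratio of shared genes was 0.86 against 0.67. The part of GC content in the differences was not tested. Matched on both pileup and GC content, 54.5 axon guidance and synapse genes would have had a WT peak, where 39 had one, and 213 gene expression genes, where 237 had one.

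The CCAAT box was more frequent at shared than at dKO-only promoters, which also differed in pileup. The letters CCAAT, on either strand within 100 bp of the summit, were found at 44.3% of the 4427 dKO summits of shared promoters (42.8 to 45.7%), at 21.0% of the 5011 dKO-only summits (19.9 to 22.2%) and at 26.0% of windows of the same length around all 20033 gene starts. In the equal-length lists 28.7% of dKO-only summits held it. The GC box GGGCGG was found at 67.6%, 62.9% and 47.0% in the same order, and the ETS site CCGGAAG at 801 of the 4427 and 651 of the 5011 summits and at 10.2% of gene starts. The 77 WT-only summits had the GC box at 35.1% (25.3 to 46.2%) and the letters TATAAA at 10 of 77 (7.21 to 22.3%). TATAAA was found at 7.09% of all gene starts, 1.70% of dKO-only summits and 2.33% of the WT summits of shared promoters. In the equal-length lists the 731 WT-only summits had the GC box at 54.2% and TATAAA at 3.69%. A match describes the sequence and does not show that a factor was bound.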

How the data were processed

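Peak lists from 4 ATAC-seq samples were compared, 2 WT and 2 dKO, pooled per genotype by the authors, with the BAF53B list beside them. Per the labels and the study's methods, the authors trimmed reads with cutadapt 1.13, aligned them to hg38 with Bowtie2 2.2.5, removed duplicates with SAMtools 1.3.1 and Picard 1.90 and called peaks with MACS2, whose version, options and Tn5 shift are not given in the sources used here. The deposited columns used are the fold (a ratio of summit pileup to local background, with a pseudocount of 1), the −log10 p-value, the −log10 q-value (at least 5 in every peak) and the summit offset, and the deposited peak score was read but enters no result. The whole pileup was solved from the fold and the p-value within 0.001 and divided by the lowest background of the list.

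Gene starts came from GENCODE 44, of the same build. Summits were assigned within 3 kb, where the farthest one counted lay at 3000 bp and the nearest one not counted at 3002 bp. The 81 gene lists in 15 themes were set by symbol patterns or symbols, so name-alikes such as ITGB1BP1 are included, and members and lists were chosen with earlier results of these data known. Pileup-matched counts used 10 ranges of dKO pileup, and with GC content also 4 equal groups of genes. Named genes were the 10 peaks of highest pileup per class, the 10 of largest and smallest scaled ratio, the first 5 at equal length, the extremes of each list and the markers. Further members of a family were named after their values were seen, and some genes and sequences are not reported here. With 1 pooled list per genotype no test was run. The steps were tested on simulated data, where 100% of 4902 pileups and 100% of 3000 promoter classes were recovered. Other settings tried were a stricter −log10 q limit of 10, equal length by q or by scaled pileup, a 1 kb window, any overlap with the window, the nearest start only, autosomes only and, added after the data had been seen, genes outside the stretches without peaks. Scripts ran in Python 3.11.15 with pandas 2.3.3, numpy 2.4.6, statsmodels 0.14.6, scipy 1.17.1 and matplotlib 3.10.9.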

Additional observations from a re-analysis of the deposited data

How the results depend on the processing

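No paired analysis was possible because the authors merged the replicates of a genotype into 1 list, which also kept single replicates from being left out. With lists of equal length there were 1844 genes in dKO only and 843 in WT only by −log10 q, and 1891 and 1033 by scaled pileup. At a −log10 q of at least 10 the WT-only genes were 54 and the genes in both lists 2795, and with the nearest gene start only the WT-only genes were 275. The median log2 pileup ratio at shared promoters was 0.49 with the authors' fold and 0.87 with the raw pileup, against 0.77. The dKO-only share of all genes was exceeded by 47 of the 81 gene lists, and by 39 to 47 under the alternatives. The WT share among all dKO-listed genes depended strongly on the setting. It was 49.3% in the main setting, 33.3% at a −log10 q of at least 10 and 72.2% at equal length by −log10 q. The shares given for single families therefore hold for the full lists only. The WT share among dKO-listed adhesion and matrix genes lay between 6.25% and 23.1% and was under that of all genes in each setting. Depth sets what can be listed: no peak had fewer than 25 fragments at its summit, so a gene without a peak may still be accessible at a lower level.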
